A study of Mus musculus with 2 samples.

Results

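Cd38, Entpd1, Nt5e, Adora2a, Adora2b, Ada and P2rx7 encode enzymes and receptors that handle extracellular ATP, NAD and adenosine, and their RNA was followed in leukocytes of MC38 tumours. These 7 genes were taken by symbol from the 33696 mouse features of the count matrix. RNA was counted in 10476 annotated cells, in 10 cell types and 58 author clusters, from the 6 mice of the second of a pair of hashed single-cell libraries. All 7 genes had unique molecular identifiers (UMIs, 1 per captured RNA molecule) in annotated cells, and no human feature of the same name held a UMI in them.

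MC38 is a transplantable mouse colon adenocarcinoma line, grown here under the skin of mice whose Fc receptors for IgG are human. Leukocytes were sorted on CD45 at 4 days post treatment. The antibodies bind mouse GITR, a costimulatory receptor of T cells, carry a human IgG1 constant region and were given at 100 µg per mouse in 2 injections 3 days apart. GA-aFuc, annotated as an agonist with enhanced Fc receptor binding, was given to 2 of the mice with counts. GITR/Syn GA-aFuc, annotated as a non-agonist with the enhanced Fc, was given to 2. N297A, annotated as an agonist with a null Fc, was given to 1, and 1 mouse was Untreated, which here means PBS. Mouse age and sex are not stated in the labels. Every mouse bore the same tumour and the human receptors.

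The products of most of these genes form a chain on the cell surface. Dying and stressed cells release ATP and NAD. P2rx7 is an ATP-gated ion channel that can lead to inflammasome activation in myeloid cells. Entpd1 encodes CD39, which cuts ATP and ADP to AMP, and Nt5e encodes CD73, which cuts AMP to adenosine. Cd38 encodes an enzyme that consumes NAD and makes ADP-ribose and cyclic ADP-ribose. Adora2a and Adora2b encode adenosine receptors that raise cyclic AMP and are known for damping T cell, NK cell and myeloid responses in tumours. Ada encodes adenosine deaminase, which turns adenosine into inosine.

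Promoter sequences of Cd38, Entpd1 and Nt5e are shown because these 3 surface enzymes carried the differences between mice described below. They are RefSeq sequences of build GRCm38.p6, each of 300 bases and ending 50 bases after the annotated start, and 6 of the 7 genes had an entry. The Cd38 entry lies at chr5:43868559-43868858 on the + strand. The Entpd1 entries lie at chr19:40612116-40612415 and chr19:40659520-40659819 on the + strand, and the Nt5e entry lies at chr9:88327359-88327658 on the + strand. Capitals mark matches to 4 short motifs searched on both strands.
Cd38 promoter: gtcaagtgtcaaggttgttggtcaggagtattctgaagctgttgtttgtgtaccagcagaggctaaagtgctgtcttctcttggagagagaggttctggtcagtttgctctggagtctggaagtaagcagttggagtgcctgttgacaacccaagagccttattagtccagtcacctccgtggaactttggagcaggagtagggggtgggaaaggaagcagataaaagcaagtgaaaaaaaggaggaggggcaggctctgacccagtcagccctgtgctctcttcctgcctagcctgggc
Entpd1 upstream promoter: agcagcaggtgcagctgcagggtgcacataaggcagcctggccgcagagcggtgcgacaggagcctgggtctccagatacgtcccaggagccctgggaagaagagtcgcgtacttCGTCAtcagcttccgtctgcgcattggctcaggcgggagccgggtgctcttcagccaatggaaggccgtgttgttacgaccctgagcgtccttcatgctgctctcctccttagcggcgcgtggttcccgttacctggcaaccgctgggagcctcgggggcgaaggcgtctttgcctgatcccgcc
Entpd1 downstream promoter: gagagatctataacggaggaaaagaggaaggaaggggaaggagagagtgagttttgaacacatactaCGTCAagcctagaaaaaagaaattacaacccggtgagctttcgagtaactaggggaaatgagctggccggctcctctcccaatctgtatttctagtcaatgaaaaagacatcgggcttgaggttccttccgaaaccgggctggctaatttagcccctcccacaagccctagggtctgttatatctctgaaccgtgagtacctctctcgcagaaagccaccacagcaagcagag
Nt5e promoter: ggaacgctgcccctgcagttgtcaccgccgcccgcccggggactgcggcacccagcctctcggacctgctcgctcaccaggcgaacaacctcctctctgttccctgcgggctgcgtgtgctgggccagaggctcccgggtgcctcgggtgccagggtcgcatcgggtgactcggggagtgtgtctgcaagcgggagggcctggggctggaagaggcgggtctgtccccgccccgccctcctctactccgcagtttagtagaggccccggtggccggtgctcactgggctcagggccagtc
The motifs were ACGTG (hypoxia-inducible factors), TGACG (the core of a cyclic AMP response element), TTCNNNGAA (STAT dimers) and TGANTCA (AP-1). TGACG matched on the opposite strand in each Entpd1 promoter, beginning 135 bases before the upstream start and 183 bases before the downstream start, and 20.8% of 32851 mouse promoters of the same length held it. None of the 4 motifs matched in the Cd38 or Nt5e window. ACGTG was present in 19.6% of all such promoters, TTCNNNGAA in 8.3% and TGANTCA in 7.81%. GC content was 51.7% for Cd38, 64% and 48.7% for the Entpd1 promoters and 71% for Nt5e, against a median of 52.7% over all promoters.

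In units of 1000000 UMIs, the cells of a mouse held between 17.2 and 25.8 in all, and the median cell held 12075 UMIs. Levels are given as CPM, the UMIs of a gene scaled to 1000000 UMIs of the cells summed. Of 53 cell type markers, 41 were highest in the type they mark, including 7 of 8 for macrophages, 3 of 6 for monocytes, 5 of 5 for CD8 T cells and 5 of 6 for NK cells. The monocyte markers Ly6c2 and Plac8 were highest in plasmacytoid dendritic cells (pDC). Among CD4 T cells only 1 of 5 markers was highest in its own type. In replicate 1 of the GA-aFuc mice and replicate 1 of the GITR/Syn GA-aFuc mice, Xist stood at 567 and 551 CPM, against 1.64 to 1.98 CPM in the other 4 mice. The Y-linked Uty stood at 0.473 and 0.319 CPM in the same pair, against 55.0 to 71.3 CPM in the other 4. These are called Xist-high and Xist-low mice below. High Xist with almost no Uty is the pattern of female cells and the reverse that of male cells, while the labels state no sex. Any difference between these mice besides Xist, sex included, cannot be told apart from it. Cell barcodes shared with the other library, which was not analysed here, numbered 34. Droplets with 10 to 100 UMIs, taken as RNA outside cells, held Entpd1 at 119 CPM, P2rx7 at 23.1, Nt5e at 16.3, Adora2b at 10.4, Ada at 9.97, Cd38 at 6.34 and Adora2a at 5.89. Such RNA was not subtracted, and how much of it the cells of a type hold was not measured. A level at or under these may include an unknown part of it. Cells can hold less of it than droplets do, as P2rx7 averaged 0.592 CPM in NK cells.

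Macrophages and monocytes held most UMIs of the 7 genes. Macrophages, with 5725 of the cells, held 78.8% of P2rx7 UMIs, 74.2% of Ada, 67.6% of Entpd1, 54.0% of Nt5e and 51.4% of Cd38. Monocytes, with 3119 cells, held 59.9% of Adora2b UMIs and macrophages 34.0%. Adora2a was spread differently, with 35.2% of its UMIs in monocytes, 24.3% in NK cells, 22.6% in CD8 T cells and 8.50% in macrophages. These levels describe the annotation and carry no test, since the clusters behind it were made from the same cells.

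**Figure D1:**
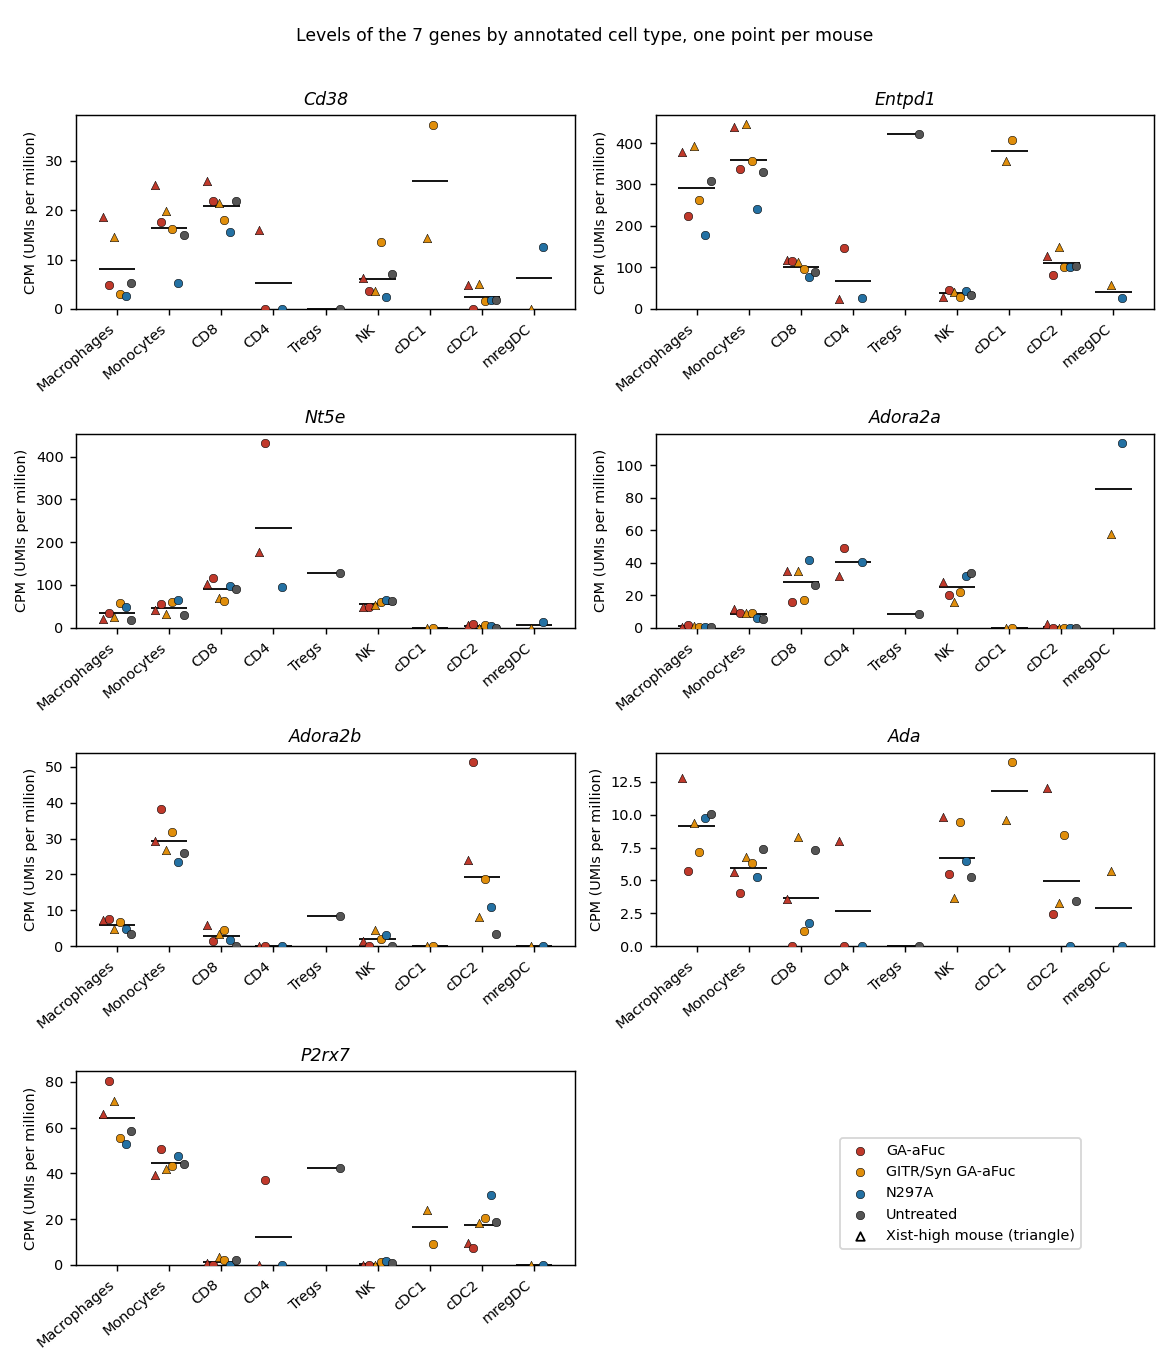
CPM (y axis, one scale per gene) of the 7 genes by annotated cell type (x axis), with 1 point per mouse that has at least 10 cells of the type, coloured by treatment, and a line at the mean over those mice. P2rx7 lies at 52.8 to 80.6 CPM in macrophages and at 0 to 3.31 CPM in CD8 T cells, and Cd38 in macrophages is high in the 2 mice drawn as triangles.

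Entpd1 was highest in myeloid cells. It averaged 358 ± 76.2 CPM in monocytes and 291 ± 84.9 CPM in macrophages (SD, n = 6 mice), and monocytes were above macrophages in 6 of 6 mice although the ranges over mice overlapped. Conventional dendritic cells of type 2 (cDC2) followed at 111 CPM and CD8 T cells at 101.4 CPM, with overlapping ranges, and NK cells were lowest at 37.3 CPM, apart from CD8 T cells in every mouse. Macrophages were apart from cDC2. Over all mice together Entpd1 reached 344 CPM in 48 cDC1 and 310 CPM in 24 Tregs, types too rare for a level per mouse. The cDC2, CD8 T cell and NK cell means were under the 119 CPM of droplets outside cells. After each cell was thinned to 3000 UMIs, which left out 39 macrophages, 68 monocytes, 10 CD8 T cells and 25 NK cells, 49.2% ± 9.68 of macrophages, 54.6% ± 7.33 of monocytes and 11.8% ± 4.34 of NK cells had an Entpd1 UMI (SD, n = 6).

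Nt5e, the next enzyme of the chain, had a different order. It averaged 89.7 ± 20.6 CPM in CD8 T cells, 55.8 ± 7.69 CPM in NK cells, 46.4 ± 14.9 CPM in monocytes and 33.4 ± 15.7 CPM in macrophages (SD, n = 6). Each of these overlapped its neighbour in the order. It averaged 3.47 CPM in cDC2, apart from macrophages in every mouse. No Nt5e UMI was found in 48 cDC1, which allows up to 3.52 CPM, while these cells were among the highest for Entpd1. In 64 CD4 T cells Nt5e reached 177 CPM over all mice.

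Cells with RNA of both enzymes, which could in principle take ATP all the way to adenosine, were rare at equal depth. At 3000 UMIs per cell both were detected in 6.20% of CD8 T cells, 4.17% of macrophages, 4.10% of monocytes, 1.04% of NK cells and 0.253% of dendritic cells. Among the rarer T cells both were detected in 2 of 23 Tregs (8.70%) and 2 of 63 CD4 T cells (3.17%). Among macrophages with an Entpd1 UMI 8.37% had an Nt5e UMI, against 7.53% of those without, and among monocytes the shares were 7.61% and 11.2%. Without thinning, both were detected in 18.8% of macrophages, 21.4% of CD8 T cells and 7 of 24 Tregs.

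The adenosine receptors had different orders over the cell types. Adora2a averaged 28.3 ± 10.52 CPM in CD8 T cells and 25.2 ± 7.01 CPM in NK cells, whose ranges overlapped, then 8.20 ± 2.28 CPM in monocytes and 0.732 ± 0.494 CPM in macrophages (SD, n = 6). NK cells, monocytes and macrophages were apart from one another in every mouse. In 55 mregDC, mature dendritic cells marked by Ccr7 and Fscn1, Adora2a was at 77.3 CPM over all mice, the highest of the 10 types, while 48 cDC1 and 27 pDC held no UMI, which allows up to 3.52 and 13.1 CPM. Adora2b averaged 29.3 ± 5.25 CPM in monocytes, 19.4 CPM in cDC2, 5.84 ± 1.63 CPM in macrophages, 2.82 CPM in CD8 T cells and 1.90 CPM in NK cells. Its neighbours in that order overlapped, although monocytes were above cDC2 in 5 of 6 mice and macrophages above CD8 T cells in 6 of 6. Macrophages, CD8 T cells and NK cells were under the 10.4 CPM of droplets outside cells for Adora2b. At 3000 UMIs per cell 10.2% ± 2.81 of NK cells had an Adora2a UMI and 0.319% ± 0.238 of macrophages did.

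P2rx7 was highest in macrophages. It averaged 64.1 ± 10.6 CPM in macrophages, 44.4 ± 4.06 CPM in monocytes and 17.5 CPM in cDC2, each apart from the next, and 1.41 CPM in CD8 T cells and 0.592 CPM in NK cells. At 3000 UMIs per cell 16.0% ± 1.37 of macrophages and 0.253% ± 0.619 of CD8 T cells had a P2rx7 UMI. Ada averaged 9.14 ± 2.45 CPM in macrophages, 6.71 CPM in NK cells, 5.92 CPM in monocytes, 4.94 CPM in cDC2 and 3.67 CPM in CD8 T cells (SD, n = 6), and all neighbours overlapped. All were under the level of droplets outside cells, whose part in these levels was not measured, and no order among types is read for Ada.

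Cd38 was highest in CD8 T cells at 20.8 ± 3.60 CPM, then monocytes at 16.5 ± 6.54 CPM, macrophages at 8.14 ± 6.75 CPM and NK cells at 6.13 ± 4.06 CPM (SD, n = 6), all overlapping. CD8 T cells were above monocytes in 6 of 6 mice. Over all mice 27 pDC reached 74.1 CPM, from 17 UMIs, and 24 Tregs held none, which allows up to 13.7 CPM. NK cells were under the level of droplets outside cells.

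Levels also varied among the author clusters of a cell type. Over the 50 clusters with at least 50 cells, Cd38 ran from 0.672 to 64.8 CPM with a median of 5.76. Its highest cluster was monocyte cluster 0, 447 cells led by Mmp12, Inhba and Nos2, which held 56.4% of the monocyte Cd38 UMIs. Macrophage cluster 12, led by Fabp5, Ccl8 and Pf4, followed at 33.5 CPM, and CD8 cluster 16 at 33.3 CPM. Adora2b peaked at 85.3 CPM in monocyte cluster 27, led by Vcan and Hp, which mark classical monocytes, and Entpd1 was at 557 CPM there. Monocyte cluster 42, led by S100a9, S100a8 and Ace, had the highest Entpd1, at 558 CPM. Nt5e was highest in monocyte cluster 47, at 170 CPM, and in CD8 cluster 23, at 158 CPM, whose leading genes include Tcf7, a factor of less differentiated T cells. Adora2a was at 68.4 CPM in NK cluster 26, led by Ccl5 and Itga2 but also by Ccl7 and Arg1, which are myeloid genes. P2rx7 reached 113 CPM in macrophage cluster 9, led by Mmp12, Hspa1a and Hmox1, and Ada 17.0 CPM in macrophage cluster 17, led by the replication-linked histone genes H1f5 and H2ac24.

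**Figure D2:**
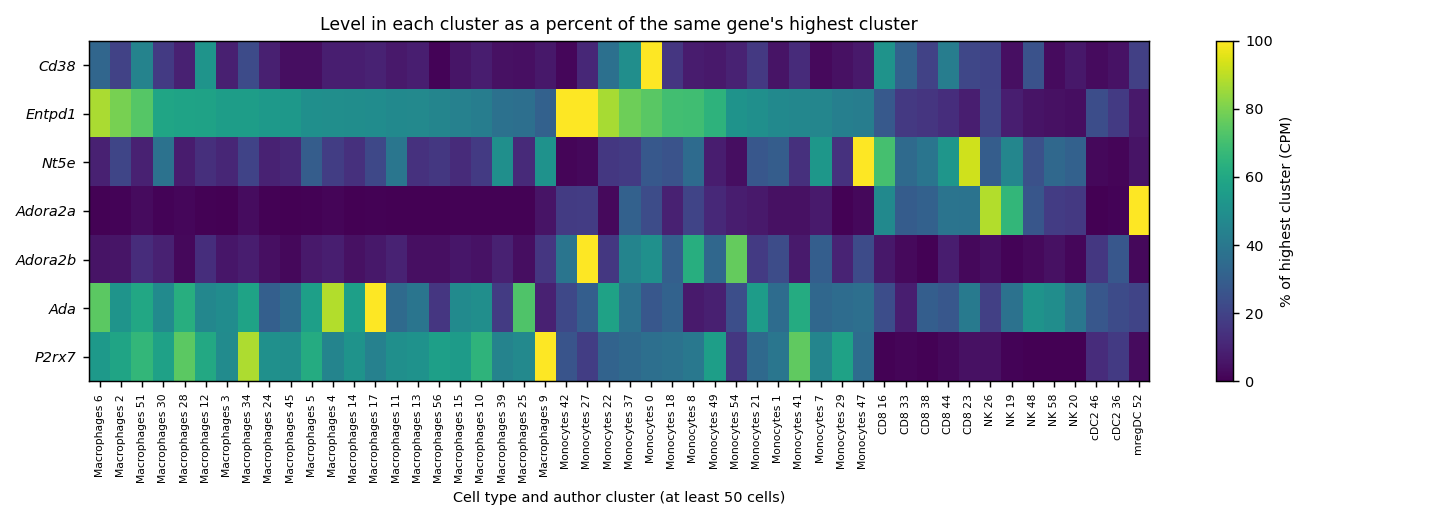
Level of each gene (rows) in the 50 author clusters with at least 50 cells (columns, grouped by cell type and ordered by Entpd1), coloured as percent of that gene's highest cluster by CPM. Cd38 stands high in monocyte cluster 0, Adora2a in mregDC, NK and CD8 clusters, and P2rx7 in macrophage and monocyte clusters.

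Across these 50 clusters, the gene most like each member was ranked among 8295 genes by Pearson r of log2(CPM + 1), as a description of clusters that share libraries and depth. P2rx7 was most like Cd68, a lysosomal protein of macrophages (r = 0.97), then Cd300c2, Ctss, Psap and Cebpa. Entpd1 was most like Man2a1 (r = 0.92), then Rbm47, Igsf6, Rhbdf2 and AI504432. Adora2a was most like Hopx (r = 0.89), then Chst11, Cblb, Il12rb2 and Stat3, and Adora2b was most like Plcb1 (r = 0.87), then Olr1, Krt80, Sgms2 and Mefv. Nt5e reached 0.73 with Sh2b1, followed by Csnk1g3, 1700017B05Rik, Fgf13 and Itpr3. Cd38 reached 0.58 with Ccl5, followed by Fam169b, Tgoln1, Hif1a and Serpina3f. Ada was below the mean level of 10 CPM needed for this ranking. Among the members, P2rx7 and Entpd1 had r = 0.84, Adora2b and Entpd1 0.56, and P2rx7 and Adora2a −0.72.

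Treatments were compared on UMIs summed per mouse in 5 classes (NK cells, CD8 T cells, dendritic cells, monocytes, macrophages), with edgeR's quasi-likelihood test and Benjamini-Hochberg adjustment over all genes kept in a class. The 7 genes gave 27 tested combinations of gene and class out of 35 possible, since those with too few counts were not kept. Among them 1 passed at an adjusted p under 0.05 for GA-aFuc against N297A, and 0 passed for each of the other 5 contrasts. At an unadjusted p under 0.05, 3 of 27 lay under it for GA-aFuc against Untreated, 3 for GA-aFuc against N297A, 3 for GITR/Syn GA-aFuc against GA-aFuc, 0 for GITR/Syn GA-aFuc against Untreated, 3 for N297A against Untreated, and 5 for the 4 Fc-enhanced mice against the N297A and Untreated mice. The share of all genes at that unadjusted threshold is not given here, so these counts are not read as particular to the 7 genes. Few genes of any kind passed the adjusted threshold. In macrophages the share of all 14340 genes called was 0.00697% for GITR/Syn GA-aFuc against GA-aFuc and 0% for the other 5 contrasts. In monocytes, out of 11920 genes, it was 0.176% for GA-aFuc against Untreated, 0.579% for GA-aFuc against N297A, 0.109% for GITR/Syn GA-aFuc against GA-aFuc, 0.344% for Fc-enhanced against the other mice, and 0% for the remaining pair. In CD8 T cells it was 0.0117% for GA-aFuc against N297A and for Fc-enhanced against the other mice, and 0% elsewhere. In NK cells it ran through 0.0536%, 0.0429%, 0%, 0.129%, 0.0107% and 0.268% in the order of contrasts above. In dendritic cells it was 0.0117%, 0.0234%, 0.14%, 0%, 0.0234% and 0.0234%. N297A and Untreated have 1 mouse each and were assumed to vary like the paired treatments, with 2 residual degrees of freedom per class. Each of those pairs holds 1 Xist-high and 1 Xist-low mouse, so the spread used includes any difference linked to Xist.

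**Figure D3:**
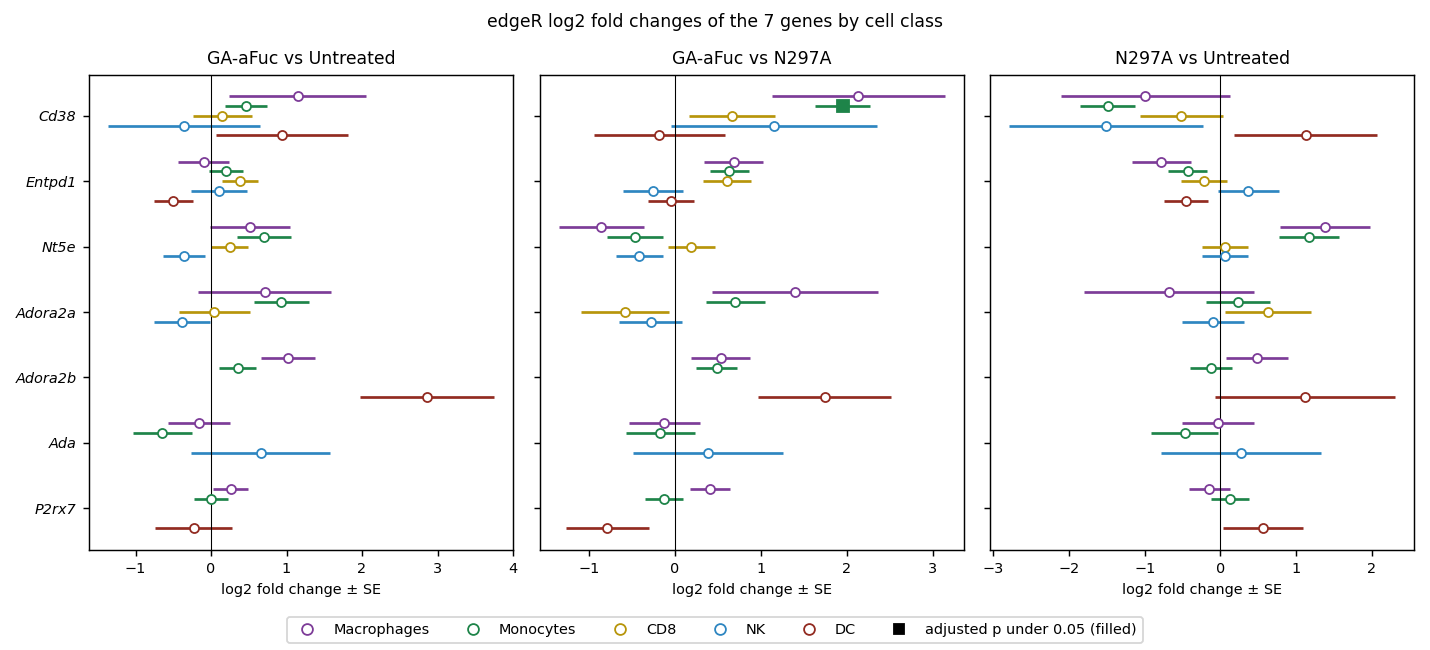
edgeR log2 fold change ± SE (x axis) of each gene (rows) in 5 cell classes (colours) for 3 contrasts (panels). The filled square, Cd38 in monocytes for GA-aFuc against N297A at 1.95 ± 0.32, is the only value past an adjusted p of 0.05.

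Cd38 was the gene that passed, in monocytes. It had 25.04 and 17.6 CPM in monocytes of GA-aFuc mice, 19.8 and 16.1 CPM in those of GITR/Syn GA-aFuc mice, 5.26 CPM in those of the N297A mouse and 15.03 CPM in those of the Untreated mouse. The N297A mouse was below all others, and the Untreated mouse was just below the 4 Fc-enhanced mice. Monocyte Cd38 was higher in GA-aFuc than in N297A mice by 1.95 ± 0.32 on the log2 scale (edgeR, adjusted p = 0.0194, higher in 2 of 2 mice). Against the Untreated mouse the difference was 0.46 ± 0.28 (adjusted p = 0.899). N297A against Untreated gave −1.49 ± 0.36 (adjusted p = 0.748), and Fc-enhanced against the other mice 1.09 ± 0.21 (adjusted p = 0.0572). The call thus rests on 1 N297A mouse with 31 Cd38 UMIs in 649 monocytes. Its 5.26 CPM was under the 6.34 CPM of Cd38 in droplets outside cells, whose part in this level was not measured. Without GITR/Syn GA-aFuc replicate 1 the adjusted p was 0.0810, and with equal numbers of cells per mouse it was 0.0757.

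Markers of other cells were summed in the same monocytes. The 5 markers of neutrophils, all with UMIs there, summed to 66.3 and 349 CPM in GA-aFuc mice, against 47.1 CPM in the N297A mouse. Without GA-aFuc replicate 2, the mouse with 349 CPM, Cd38 was higher by 2.19 on the log2 scale in edgeR. That fit sets a lone Xist-high GA-aFuc mouse against the lone Xist-low N297A mouse. Treatment cannot be told apart there from a difference linked to Xist, and no p-value is read from it. The 8 macrophage markers, all with UMIs, summed to 10858 and 8745 CPM in GA-aFuc monocytes, against 10716 CPM in those of the N297A mouse. The 3 endothelial markers, all with UMIs, summed to 126 and 124 CPM in GA-aFuc mice, 117 and 63.8 CPM in GITR/Syn GA-aFuc mice, 47.0 CPM in the N297A mouse and 80.1 CPM in the Untreated mouse. The N297A mouse was lowest there as it was for Cd38, and Pecam1, which monocytes also express, made up 94.1% of these UMIs. The part of these markers in the result was not tested.

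Share of cells and cluster makeup were looked at for the same gene. At 3000 UMIs per cell, 4.34% and 3.58% of GA-aFuc monocytes, 3.80% and 2.95% of GITR/Syn GA-aFuc monocytes, 0.773% of N297A monocytes and 3.59% of Untreated monocytes had a Cd38 UMI. Cluster 0, where Cd38 is highest, made up 20.3% and 17.9% of GA-aFuc monocytes, 16.9% and 12.0% of GITR/Syn GA-aFuc monocytes, 9.71% of N297A monocytes and 12.5% of Untreated monocytes. Within that cluster Cd38 was at 61.3 and 41.0 CPM in GA-aFuc mice, 98.3 and 89.5 CPM in GITR/Syn GA-aFuc mice, 42.4 CPM in the N297A mouse and 49.8 CPM in the Untreated mouse. The GA-aFuc mice lie on both sides of the N297A mouse there. In all other monocytes Cd38 was at 15.9 and 13.1 CPM in GA-aFuc mice, 5.51 and 5.95 CPM in GITR/Syn GA-aFuc mice, 1.67 CPM, from 9 UMIs, in the N297A mouse and 10.1 CPM in the Untreated mouse. Outside cluster 0 the N297A mouse was again below the other 5. Its level there and those of the GITR/Syn GA-aFuc mice were under the 6.34 CPM of droplets outside cells. Taken singly, 1 of the 11 clusters with at least 10 cells in every mouse had the N297A mouse strictly lowest, with ties not counted. When the 11 clusters with at least 10 cells in every mouse were given equal weight, the log2 ratio of GA-aFuc to N297A was 1.57 and that of GA-aFuc to Untreated was 0.33.

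**Figure D4:**
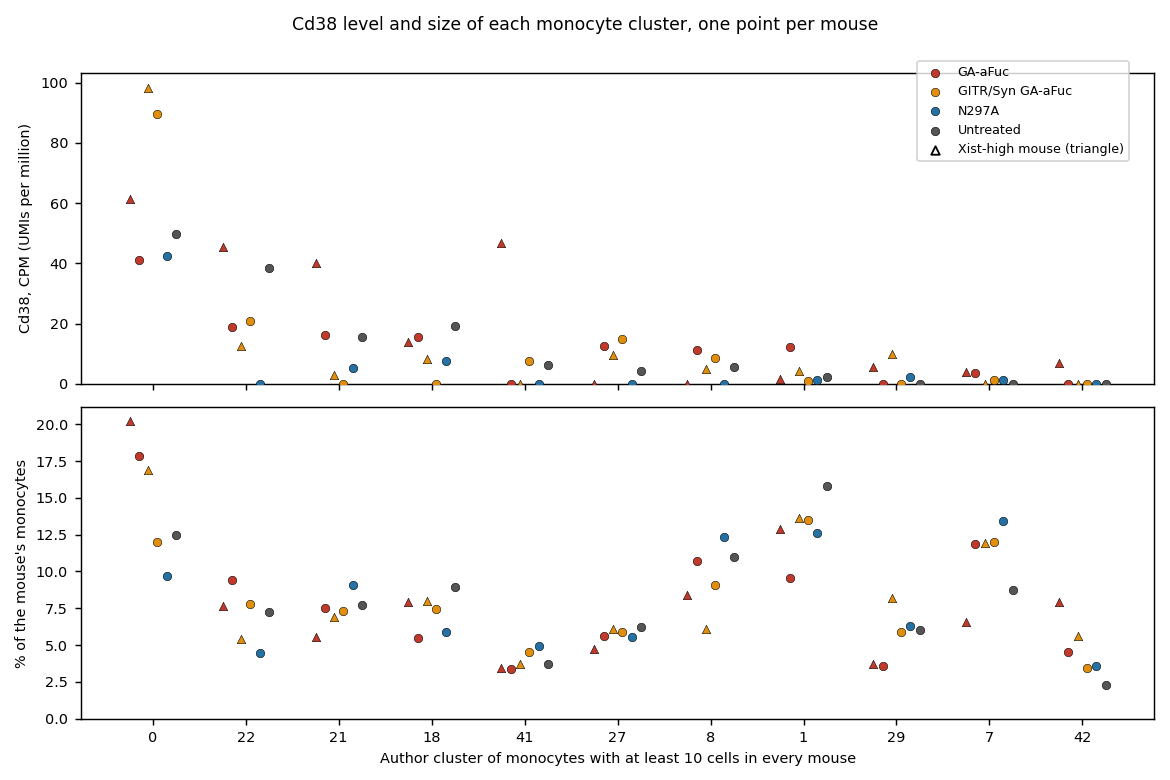
Cd38 level (upper panel, CPM) and share of the mouse's monocytes (lower panel, percent) for the 11 monocyte clusters with at least 10 cells in every mouse (x axis), 1 point per mouse. Cluster 0 holds the highest Cd38 level, 41.0 to 98.3 CPM, and its share runs from 9.71% in the N297A mouse to 20.3% in a GA-aFuc mouse.

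In macrophages the Xist-high mice were the top 2 for Cd38. It had 18.6 and 4.90 CPM in macrophages of GA-aFuc mice, 14.6 and 3.00 CPM in those of GITR/Syn GA-aFuc mice, 2.58 CPM in those of the N297A mouse and 5.15 CPM in those of the Untreated mouse. The first of each pair is the Xist-high mouse, so that mice given the same antibody differed 3.79-fold and 4.87-fold. No treatment contrast passed, with 2.14 ± 1.004 on the log2 scale for GA-aFuc against N297A (edgeR, adjusted p = 0.970). At 3000 UMIs per cell 5.09% and 4.34% of macrophages in the Xist-high mice had a Cd38 UMI, against 0.237% to 1.61% in the Xist-low mice. The 4 Xist-low mice were under the 6.34 CPM found in droplets outside cells.

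The same order held inside most macrophage clusters. Of the 20 macrophage clusters with at least 10 cells in every mouse, both Xist-high mice exceeded all 4 Xist-low mice for Cd38 in 13, and none had them both below. The clusters are cells of the same mice, so counts of clusters here and below are not separate observations. How often genes of any kind give such counts was not looked at. The Xist-high GA-aFuc mouse was above the other GA-aFuc mouse in 17 of 20 clusters, and the Xist-high GITR/Syn GA-aFuc mouse above its pair in 18. In cluster 12, Cd38 was at 70.2 and 40.7 CPM in the Xist-high mice, against 12.5 to 29.4 CPM in the Xist-low mice. In cluster 6, led by Cxcl9, Socs1 and Gbp5, genes induced by interferon gamma, it was at 38.8 and 36.4 CPM in the Xist-high mice, against 5.38 to 23.5 CPM in the Xist-low mice. In monocytes the Xist-high mice were also the top 2 for Cd38, at 25.04 and 19.8 CPM, against 5.26 to 17.6 CPM in Xist-low mice, but within monocyte clusters both exceeded all Xist-low mice in 1 of 11.

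Entpd1 followed the same mice in macrophages. It was at 377 and 224 CPM in GA-aFuc mice, 393 and 264 CPM in GITR/Syn GA-aFuc mice, 179 CPM in the N297A mouse and 309 CPM in the Untreated mouse. The Xist-high mice were the top 2 overall and in 14 of 20 macrophage clusters, and the N297A mouse was the lowest in 16 of 20. In monocytes Entpd1 was at 440 and 336 CPM in GA-aFuc mice, 445 and 356 CPM in GITR/Syn GA-aFuc mice, 242 CPM in the N297A mouse and 331 CPM in the Untreated mouse. All 4 Fc-enhanced mice were above the other 2 there, by a log2 difference of 0.44 ± 0.16 that did not pass (edgeR, adjusted p = 0.424). Entpd1 in monocytes differed by 0.63 ± 0.23 between GA-aFuc and N297A mice (adjusted p = 0.378).

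Nt5e ran the other way within both pairs. In macrophages it was at 20.2 and 34.4 CPM in GA-aFuc mice, 23.7 and 56.6 CPM in GITR/Syn GA-aFuc mice, 47.2 CPM in the N297A mouse and 18.2 CPM in the Untreated mouse. The Xist-high mouse was the lower of its pair in each treatment, in 15 of 20 clusters for GA-aFuc and in 20 of 20 for GITR/Syn GA-aFuc. The Untreated mouse, which is Xist-low, was lower still, so that Nt5e did not follow Xist across all 6 mice. In monocytes Nt5e was at 40.01 and 55.6 CPM in GA-aFuc mice, 31.5 and 58.7 CPM in GITR/Syn GA-aFuc mice, 63.9 CPM in the N297A mouse and 28.8 CPM in the Untreated mouse. N297A against Untreated gave 1.38 ± 0.60 on the log2 scale in macrophages and 1.17 ± 0.40 in monocytes, and neither passed (edgeR, adjusted p = 1.0 for both).

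**Figure D5:**
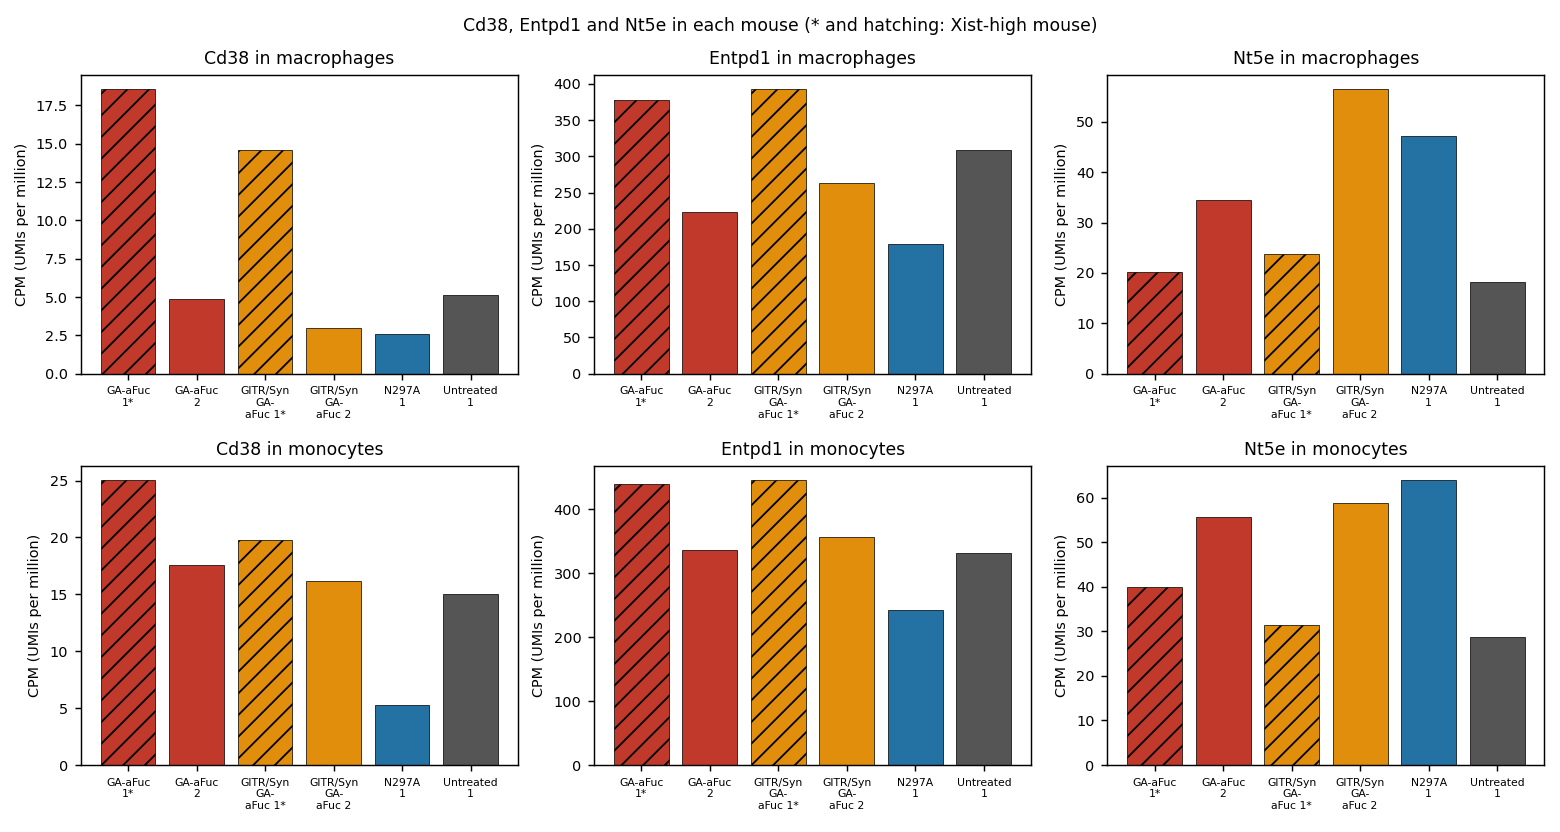
CPM (y axis, bars from 0) of Cd38, Entpd1 and Nt5e in macrophages (upper row) and monocytes (lower row) of each mouse (x axis), with the Xist-high mice hatched. In macrophages the hatched bars are the tallest for Cd38, at 18.6 and 14.6 CPM, and for Entpd1, at 377 and 393 CPM, and the shorter of each treatment's pair for Nt5e.

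A fit with a term for the Xist-high mice beside treatment, chosen after the data were seen, gave these differences a size. It leaves 1 residual degree of freedom, so its spread is largely borrowed from other genes and its p-values are likely too small. In macrophages Cd38 differed by 2.04 ± 0.27 on the log2 scale between Xist-high and Xist-low mice (edgeR, adjusted p = 9.9e-12), Nt5e by −1.08 ± 0.22 (adjusted p = 0.000117) and Entpd1 by 0.60 ± 0.25 (adjusted p = 0.376), where 1.96% of all genes were called. In monocytes Nt5e differed by −0.74 ± 0.20 (adjusted p = 0.0272) and Cd38 by 0.34 ± 0.22 (adjusted p = 1.0), where 0.931% were called. With that term macrophage Nt5e passed against Untreated for GITR/Syn GA-aFuc (1.49, adjusted p = 0.000616), N297A (1.38, adjusted p = 0.00532) and GA-aFuc (1.02, adjusted p = 0.0361), where 0.418%, 0.453% and 2.17% of genes were called. Monocyte Nt5e passed for N297A against Untreated (1.17, adjusted p = 0.0151) and GA-aFuc against Untreated (adjusted p = 0.00943). Monocyte Cd38 passed for GA-aFuc against N297A (1.77, adjusted p = 4.2e-05), N297A against Untreated (−1.49, adjusted p = 0.0206) and Fc-enhanced against the other mice (0.91, adjusted p = 0.0119). In monocytes this fit called 2.1% of genes for GA-aFuc against Untreated, 2.37% for GA-aFuc against N297A, 0.302% for N297A against Untreated and 2.01% for Fc-enhanced against the other mice.

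The adenosine receptors did not pass in any class. Adora2a in monocytes was at 11.4 and 8.80 CPM in GA-aFuc mice, 9.09 and 8.86 CPM in GITR/Syn GA-aFuc mice, 5.94 CPM in the N297A mouse and 5.15 CPM in the Untreated mouse. The 4 Fc-enhanced mice were above the other 2, by 0.74 ± 0.25 on the log2 scale (edgeR, adjusted p = 0.372). In NK cells Adora2a was at 28.1 and 20.1 CPM in GA-aFuc mice, 15.7 and 21.97 CPM in GITR/Syn GA-aFuc mice, 31.7 CPM in the N297A mouse and 33.5 CPM in the Untreated mouse, with the Fc-enhanced mice below the other 2 (−0.53 ± 0.26, adjusted p = 0.559). In CD8 T cells it was at 34.7 and 15.6 CPM in GA-aFuc mice, 34.8 and 16.9 CPM in GITR/Syn GA-aFuc mice, 41.5 CPM in the N297A mouse and 26.2 CPM in the Untreated mouse. The Xist-high mouse was the higher of each treatment pair there, by 2.23-fold and 2.06-fold, on 10 to 48 UMIs per mouse.

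Adora2b was counted most in monocytes. It was at 29.4 and 38.2 CPM in GA-aFuc mice, 26.8 and 31.8 CPM in GITR/Syn GA-aFuc mice, 23.4 CPM in the N297A mouse and 25.9 CPM in the Untreated mouse, with no overlap between the Fc-enhanced mice and the other 2 (0.32 ± 0.17 on the log2 scale, edgeR, adjusted p = 0.645). In cDC2 Adora2b was at 24.0 and 51.3 CPM in GA-aFuc mice, 8.26 and 18.6 CPM in GITR/Syn GA-aFuc mice, 10.8 CPM in the N297A mouse and 3.42 CPM in the Untreated mouse, from 10, 21, 5, 11, 6 and 2 UMIs. In dendritic cells as a class it gave the widest fold change of the 7 genes, 2.86 ± 0.89 on the log2 scale for GA-aFuc against Untreated, which did not pass (adjusted p = 0.539). Without GA-aFuc replicate 1 it gave 3.27 (adjusted p = 0.0190), in a fit that called 1.81% of all genes of the class. That value rests on GA-aFuc replicate 2 alone, whose dendritic cells held the 5 neutrophil markers at 35.2 CPM summed, against 3.44 to 9.68 CPM in the other 5 mice. The part of these markers was not tested.

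No contrast passed for P2rx7 or Ada. P2rx7 in macrophages was at 65.9 and 80.6 CPM in GA-aFuc mice, 71.5 and 55.3 CPM in GITR/Syn GA-aFuc mice, 52.8 CPM in the N297A mouse and 58.7 CPM in the Untreated mouse, and the highest mouse was 1.53-fold above the lowest. Its log2 difference between GA-aFuc and N297A macrophages was 0.41 ± 0.24 (edgeR, adjusted p = 0.970). In monocytes P2rx7 ranged from 39.2 to 50.6 CPM over the 6 mice. Ada in macrophages was at 12.8 and 5.75 CPM in GA-aFuc mice, 9.36 and 7.14 CPM in GITR/Syn GA-aFuc mice, 9.77 CPM in the N297A mouse and 10.0 CPM in the Untreated mouse, with overlapping groups. The Ada range includes the level of droplets outside cells.

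No member passed in CD8 T cells. Cd38 there was at 26.0 and 21.8 CPM in GA-aFuc mice, 21.5 and 18.0 CPM in GITR/Syn GA-aFuc mice, 15.6 CPM in the N297A mouse and 21.9 CPM in the Untreated mouse. Nt5e in CD8 T cells was at 67.9 and 63.1 CPM in GITR/Syn GA-aFuc mice, against 103 and 117 CPM in GA-aFuc mice, 96.9 CPM in the N297A mouse and 91.1 CPM in the Untreated mouse. The GITR/Syn GA-aFuc mice were the lowest 2 of the 6. The log2 difference from GA-aFuc was −0.74 ± 0.22, which did not pass over all genes (edgeR, adjusted p = 1.0). The 8 macrophage markers, all with UMIs in CD8 T cells, summed to 1319 and 895 CPM in GITR/Syn GA-aFuc mice, against 520.5 and 478 CPM in GA-aFuc mice, 815 CPM in the N297A mouse and 486 CPM in the Untreated mouse, and their part was not tested.

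A list of 64 other genes of purine and NAD handling and of their downstream responses gave 217 tested combinations of gene and class of 320 possible. Of these 0 passed for GA-aFuc against N297A, with 32 at an unadjusted p under 0.05, and 104 of the 217 were above 0, with a median log2 fold change of −0.02. For GA-aFuc against Untreated 0 passed and 17 had an unadjusted p under 0.05. The share of all genes at that unadjusted threshold is not given, so these counts are not read as particular to the list. For Fc-enhanced against the other mice 1 passed, Il1b in NK cells, and 0 passed for each of the other 3 contrasts. With the term for Xist, whose p-values are likely too small, 7 of 217 were called for GA-aFuc against Untreated, 7 for GA-aFuc against N297A and 5 for Fc-enhanced against the other mice. That fit called 1.23%, 1.18% and 1.06% of all genes over the 5 classes for the same contrasts. In monocytes all tested genes had a median of 0.02 for GA-aFuc against N297A, the 7 members 0.48, 5 genes of nucleotide release and hydrolysis 0.37, 10 of adenosine handling −0.19, 8 purine receptors −0.21 and 12 of NAD metabolism 0.10.

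Il1b encodes the cytokine that the inflammasome below P2rx7 matures. In NK cells it had 18.3 and 18.3 CPM in GA-aFuc mice, 25.01 and 6.28 CPM in GITR/Syn GA-aFuc mice, 54.4 CPM in the N297A mouse and 66.2 CPM in the Untreated mouse. It fell by 1.75 ± 0.31 on the log2 scale in Fc-enhanced against the other mice (edgeR, adjusted p = 0.0225, lower in 4 of 4 mice). DESeq2 did not call it (adjusted p = 0.612), nor did edgeR at a minimum count of 30 (adjusted p = 0.0645). Leaving out a single Fc-enhanced mouse kept the call, with −1.45 to −2.40. Il1b is a myeloid gene, and the 8 macrophage markers, all with UMIs in NK cells, summed to 394 and 507 CPM in GA-aFuc mice, 769 and 302 CPM in GITR/Syn GA-aFuc mice, 827 CPM in the N297A mouse and 441 CPM in the Untreated mouse. Their part in the result was not tested.

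Other genes of the list did not pass without the term for Xist, and are given by the smallest p in each class for GA-aFuc against N297A. In monocytes these were Bst1, which encodes the other NAD-cutting ectoenzyme related to CD38, Pde4b, a phosphodiesterase that ends cyclic AMP signals, P2ry14, a receptor for UDP-sugars, and Nampt, which makes NAD from nicotinamide. Bst1 was at 65.8 and 98.9 CPM in GA-aFuc mice, 55.0 and 68.9 CPM in GITR/Syn GA-aFuc mice, 36.3 CPM in the N297A mouse and 47.4 CPM in the Untreated mouse. The Fc-enhanced mice were all above the other 2, and Bst1 differed by 1.13 ± 0.28 on the log2 scale between GA-aFuc and N297A mice (edgeR, adjusted p = 0.129). Pde4b differed by 0.88 ± 0.22 (adjusted p = 0.130), P2ry14 by 1.26 ± 0.34 (adjusted p = 0.173) and Nampt by 0.73 ± 0.23 (adjusted p = 0.281). With the term for Xist, Bst1 (1.36, edgeR adjusted p = 7.0e-05) and P2ry14 (0.93, adjusted p = 0.0434) were called.

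In macrophages the 4 were Dpp4, which encodes CD26 (−1.36 ± 0.36), the nucleoside carrier Slc28a2 (0.76 ± 0.23), Enpp1, a nucleotide pyrophosphatase (1.40 ± 0.44), and Pde4b (0.70 ± 0.25). All are edgeR log2 differences with an adjusted p of 0.970. With the term for Xist, Enpp1 was called there (1.58, adjusted p = 0.0317). In CD8 T cells Adk, adenosine kinase, which traps adenosine as AMP, was at 15.2 and 18.7 CPM in GA-aFuc mice, 66.3 and 48.5 CPM in GITR/Syn GA-aFuc mice, 62.3 CPM in the N297A mouse and 20.4 CPM in the Untreated mouse. Its log2 difference between GA-aFuc and N297A was −1.89 ± 0.38 (edgeR, adjusted p = 0.319), and −1.98 with the term for Xist (adjusted p = 0.00617). The macrophage markers given above for CD8 T cells were likewise lowest in the GA-aFuc mice and the Untreated mouse, at 478 to 520.5 CPM, and 815 to 1319 CPM in the other 3 mice, and their part was not tested. P2ry14 (1.28 ± 0.38), Il1b (1.40 ± 0.53) and Dpp4 (−0.84 ± 0.32) followed there. In dendritic cells the 4 were Nlrp3, the inflammasome sensor (0.75 ± 0.23), Pde4b (0.55 ± 0.17), Entpd6 (−1.70 ± 0.59) and Dpp4 (−0.66 ± 0.23), with adjusted p from 0.471 to 0.567. In NK cells they were Il1b (−1.53 ± 0.44), Nampt (−0.75 ± 0.30), Nt5c3, a cytosolic nucleotidase (−0.60 ± 0.24), and Sirt1, an NAD-dependent deacetylase (−0.82 ± 0.36), with adjusted p from 0.757 to 0.995, and Il1b was called with the term for Xist (−2.17, adjusted p = 0.00233).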

How the data were processed

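Single cells of MC38 tumours were hashed, pooled and sequenced with a 3′ droplet assay. The deposited values are raw counts of UMIs, made with Cell Ranger 9.0.0 as the file headers state, on combined GRCh38 and GRCm39 features, per the submitters' processing notes. The authors' annotation gives treatment, cell type and cluster. The sources used here do not give its making or any removal of doublets, and no doublet caller was run. Mice were taken as runs of sorted barcodes in that annotation, and replicates numbered in run order. In 10476 of 10476 cells the most frequent hashtag was that of the assigned mouse.

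Counts were summed per mouse and class and tested with edgeR 4.0.16 (filterByExpr, TMM, quasi-likelihood, all 6 mice in 1 fit per class), with Benjamini-Hochberg adjustment over all genes kept. Each SE is |log2 fold change| over the root of the F statistic. CPM divides by all mapped UMIs of the cells. For shares, cells were thinned to 3000 UMIs and shallower cells left out. A count of 0 allows 3 counts, and such limits cover counting error only. Without the term for Xist, the p-values rest on the spread within the GA-aFuc pair and the GITR/Syn GA-aFuc pair. Each pair is 1 Xist-high and 1 Xist-low mouse, so that spread cannot be told apart from a difference linked to Xist. The N297A and Untreated mice, both Xist-low, add no spread.

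The 7 genes, the lists, the tests and the alternatives were chosen with earlier results of these data known. Named besides them were list genes past the threshold, the 4 with the smallest p per class for GA-aFuc against N297A, and the 5 most like each member. On simulated counts for monocytes (11920 genes), GA-aFuc against N297A, the edgeR step called 29 of 100 genes simulated with a 2-fold change, 94 of 100 with an 8-fold change, and 8 falsely. Alternatives were DESeq2 1.42.0, RLE size factors, other count filters, the highest 1% of cells by UMIs left out, fewer cells, fewer clusters, each mouse left out, other thinning, and a term for Xist. Tools were R 4.3.3, Python 3.11.15 and pandas 2.3.3.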

Additional observations from a re-analysis of the deposited data

Results flagged for a closer look

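Of 35 pairs of gene and contrast, 17 had mice that lay on one side in one class and on the other side in another, and none of these differences between classes was itself tested. How often genes of any kind do so was not counted, so the count is not a result about these 7 genes. Values are edgeR log2 fold changes, with 1 lone mouse on one side of most contrasts. For GA-aFuc against Untreated, Ada gave 0.66 in NK cells and −0.64 in monocytes, Cd38 0.94 in dendritic cells and −0.35 in NK cells, and P2rx7 0.26 in macrophages and −0.23 in dendritic cells. Under the same contrast Nt5e gave 0.70 in monocytes and −0.36 in NK cells, Adora2a 0.93 in monocytes and −0.38 in NK cells, and Entpd1 0.38 in CD8 T cells and −0.50 in dendritic cells.

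For GA-aFuc against N297A, Cd38 gave 2.14 in macrophages and −0.18 in dendritic cells, P2rx7 0.41 in macrophages and −0.79 in dendritic cells, Nt5e 0.19 in CD8 T cells and −0.86 in macrophages, and Adora2a 1.40 in macrophages and −0.59 in CD8 T cells. For GITR/Syn GA-aFuc against GA-aFuc, Cd38 gave 0.54 in dendritic cells and −0.32 in CD8 T cells, Nt5e 0.30 in NK cells and −0.74 in CD8 T cells, and Entpd1 0.62 in dendritic cells and −0.18 in CD8 T cells. For GITR/Syn GA-aFuc against Untreated, Cd38 gave 1.49 in dendritic cells and −0.17 in CD8 T cells, Nt5e 1.10 in macrophages and −0.49 in CD8 T cells, and Adora2a 0.78 in monocytes and −0.77 in NK cells. Adora2a for Fc-enhanced against the other mice gave 0.74 in monocytes and −0.53 in NK cells, and there no Fc-enhanced mouse overlapped the other 2 in either class.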

How the results depend on the processing

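No paired analysis was possible because the replicate numbers only name mice in the order of the annotation and N297A and Untreated have 1 mouse each. Of 2007 member values under the alternatives, 98 had the opposite sign to the value reported, none of them past the threshold. Among differences given above, Cd38 in NK cells was 0.18 with the Xist term for GA-aFuc against Untreated, and with equal cells per mouse Nt5e in NK cells was 0.22, P2rx7 in dendritic cells 0.79 and Entpd1 in CD8 T cells −0.02. For GITR/Syn GA-aFuc against GA-aFuc, Entpd1 in CD8 T cells was 0.06 with equal cells and Cd38 in dendritic cells −0.06 without the highest 1% of cells by UMIs. Macrophage Cd38 for GA-aFuc against Untreated was 1.15, −0.20 with the Xist term and −0.12 without GA-aFuc replicate 1. For Cd38 in monocytes, GA-aFuc against N297A, equal cells per mouse gave 1.64 (adjusted p = 0.0757), equal weight per cluster gave 1.57 with no test, and leaving out each mouse gave 1.69 to 2.19, with the call lost only without GITR/Syn GA-aFuc replicate 1 (adjusted p = 0.0810). The 2.19 came from the fit without GA-aFuc replicate 2, which leaves a lone, Xist-high GA-aFuc mouse. Over all tested settings of this comparison the highest adjusted p was 0.0810. GA-aFuc against Untreated gave 0.20 to 0.71 with a mouse left out.

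The number of members called over the 5 classes moved as follows. With no filter on low counts it was 1 for GA-aFuc against Untreated (Adora2b in dendritic cells), 3 for GA-aFuc against N297A, 1 for GITR/Syn GA-aFuc against Untreated, 3 for N297A against Untreated and 2 for Fc-enhanced against the other mice. With a term for Xist it was 2, 1, 1, 3 and 1 for the same contrasts. With equal cells per mouse it was 0 for GA-aFuc against N297A, and without 5 marginal clusters it was 1 for Fc-enhanced against the other mice (Cd38 in monocytes). With each mouse left out it ran from 0 to 1 for GA-aFuc against Untreated, 0 to 3 for GA-aFuc against N297A, 0 to 1 for GITR/Syn GA-aFuc against GA-aFuc, 0 to 3 for N297A against Untreated and 0 to 2 for Fc-enhanced against the other mice. Without GA-aFuc replicate 2, the Xist-low mouse of its pair, Cd38 in macrophages passed for GA-aFuc against Untreated, GA-aFuc against N297A and GITR/Syn GA-aFuc against GA-aFuc. DESeq2, RLE size factors, a minimum count of 30 and leaving out the highest 1% of cells by UMIs left every such count the same. Genes of all kinds moved with them. Over the 5 classes, the share of all genes called for GA-aFuc against N297A was 0.144% as reported, 0.765% with no filter, 1.18% with the Xist term, 1.40% without GA-aFuc replicate 1 and 0.855% without GA-aFuc replicate 2. For N297A against Untreated it was 0.00569% as reported, 0.179% with no filter and 0.235% with the Xist term. With the Xist term, GA-aFuc against Untreated called 2.17% of all genes in macrophages and 2.1% in monocytes, the classes of its called members. For GITR/Syn GA-aFuc against Untreated it was 0.418% in macrophages, and for Fc-enhanced against the other mice 2.01% in monocytes. The other counts of members have no share of all genes beside them here and are not read as particular to these genes. The cause of these moves was not tested.

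Shares of cells with a UMI depend on depth. Thinned to 1500 UMIs and unthinned, they were 31.5% and 85.9% for Entpd1 in macrophages, 11.8% and 40.5% for Nt5e in CD8 T cells, 4.79% and 21.1% for Adora2a in NK cells, 4.43% and 19.7% for Adora2b in monocytes, 1.27% and 12.1% for Ada in macrophages, and 8.56% and 47.9% for P2rx7 in macrophages. Cd38 in monocytes was at 7.27% unthinned. With clusters of at least 100 cells, the 5 genes most like a member shared 2 with the list above for Entpd1 and P2rx7, 1 for Nt5e and Adora2b, and 0 for Cd38 and Adora2a.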
